A study of Danio rerio with 12 samples.

Results

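To ask how the effect of losing Ercc2/Xpd changed with the age of the larva, the difference between mutants and siblings at 7 days post fertilization (dpf) was set against the same difference at 5 dpf for every gene. The comparison used all 12 of the 12 libraries of the study, 3 in each of 4 groups, and 23648 of 37541 listed genes were measured well enough to enter it, reaching 0.5 FPKM in 3 or more libraries. FPKM is the number of sequenced fragments scaled to the length of the gene and to a term for each library. In these data that term matched the median of ratios between libraries and not the total reads. All larvae were of the AB strain and whole larvae were used. The mutants carried ercc2/xpd -/-, a short CRISPR/Cas9 deletion near the C-terminus with a predicted frameshift. Their siblings were ercc2/xpd+/+ and ercc2/xpd+/- larvae in the same pools, so each sibling library is a mixture of genotypes in unknown proportion. Each library was a pool of larvae, and the mutants come from 1 deletion allele. The study does not say whether the pools came from separate clutches, so the p-values measure the spread between these libraries only. A whole-larva value averages over all organs, and fewer cells of a type and less RNA per cell cannot be told apart.

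*ercc2/xpd* encodes a DNA helicase within the TFIIH complex, which melts promoters so that RNA polymerase II can start and which unwinds damaged DNA in nucleotide excision repair. Between these ages a zebrafish larva finishes its yolk, begins to feed, slows the cell division of its early organs and refines its retina, liver and gut. An effect of the mutation that differs between the ages can therefore come from a change in the siblings, in the mutants or in both, and the values of all 4 groups are given for that reason. On a log2 scale the difference between the 2 effects equals the change of the mutants from 5 to 7 dpf minus the change of the siblings. The 2 effects, the 2 changes and their difference are made from the same 12 libraries and are not independent of each other.

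The libraries held 13403615 to 15084280 reads assigned to genes. The first principal component followed age and held 34.5% of the variance, and the second followed genotype with 21.8%. Of 18 identifiers for tissue markers of liver, pancreas, intestine, muscle, lens, photoreceptors, erythrocytes, neurons, neutrophils and epidermis, 17 were above 0 in every library, and *lyz*, a neutrophil gene, was above 0 in 4. No 2 libraries were identical. Symbols come from a table of gene names in which many zebrafish genes carry the human symbol in capitals, and copies can share a symbol, so the identifier is added where 2 copies are meant.

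No gene passed the test of the difference itself. In the limma fit over 23648 genes, 0 genes were called higher and 0 lower at an adjusted p under 0.05 (0% each), and the smallest adjusted p was 0.0644. At an unadjusted p under 0.05 the effect at 7 dpf was above that at 5 dpf for 1248 genes (5.28% of those tested) and below it for 1207 (5.1%). A fit of the recovered reads with voom also called 0 genes and had 1170 and 1181 under the unadjusted threshold. With scaling to TPM the split was 1279 to 850, and with scaling to the total reads it was 1486 to 745, so the balance between the directions depends on the scaling. With a block for the replicate number at 5 dpf, where libraries of the same number deviated together, 2 genes passed on the higher side, *jac9* among them. With 1 block term shared by both ages 1 gene passed (*jac9*), and with separate blocks at each age 0 passed. The effects at each single age were larger against their error. limma called 155 genes higher and 511 lower in mutants at 5 dpf (0.655% and 2.16%), and 426 higher and 768 lower at 7 dpf (1.8% and 3.25%). From 5 to 7 dpf it called 2911 genes higher and 3080 lower in siblings (12.3% and 13%), and 1268 higher and 1432 lower in mutants (5.36% and 6.06%). What follows therefore gives levels, effects and counts at the unadjusted threshold, and none of the differences between the ages is a call. Counts of list members on the higher or lower side use that threshold, which 5.28% and 5.1% of all tested genes passed. The lists were chosen with earlier results of these data known, so their shares describe the members and test nothing. Counts of list members called at an age, or called as changed with age, stand against the shares of all tested genes given above. Of all tested genes 11612 had a difference above 0 and 12036 below 0.

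**Figure D1:**
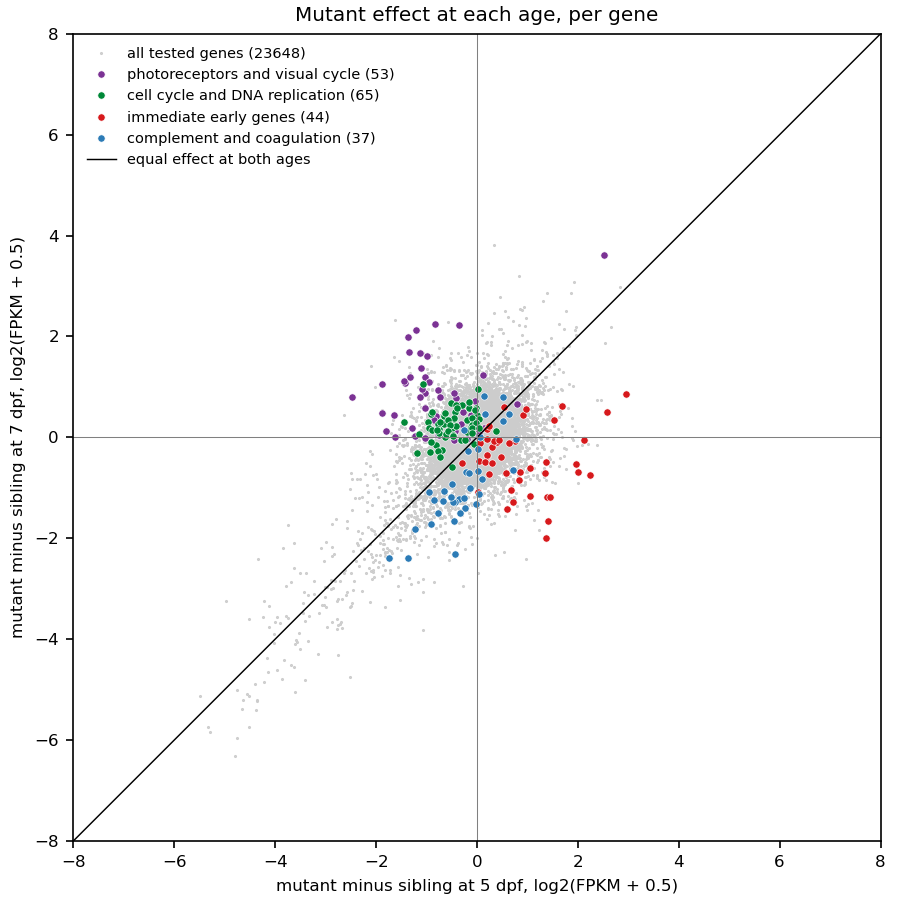
Mutant minus sibling level at 5 dpf (horizontal axis) and at 7 dpf (vertical axis) on the log2(FPKM + 0.5) scale for each of 23648 tested genes (grey), with the members of 4 gene lists in color and the line of equal effect in black. Above the line lie 52 of 53 photoreceptor and 61 of 65 cell cycle genes, and below it 43 of 44 immediate early and 33 of 37 complement genes. Of all tested genes 11612 lie above the line and 12036 below it.

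The gene of smallest p was *jac9* (ENSDARG00000074983, GRCz11 chromosome 7, 8513993 to 8515550), named after jacalin, a sugar-binding lectin. Its FPKM was 1.39, 1.88 and 1.92 in siblings and 0.0494, 0.579 and 0.228 in mutants at 5 dpf, and 0.0582, 0.118 and 0.119 in siblings and 0.828, 1.72 and 1.18 in mutants at 7 dpf. The mutants thus lay below all siblings at 5 dpf and above all of them at 7 dpf. It was the only tested gene whose effect was called at both ages in opposite directions, at −1.55 in the younger larvae (limma adjusted p = 0.00737) and 1.51 in the older ones (adjusted p = 0.00572). The difference was 3.07 ± 0.38 (SE, log2, adjusted p = 0.0644), and with a mean of 0.84 FPKM it is a rare transcript.

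The gene of smallest p on the lower side was *c9* (ENSDARG00000016319, chromosome 5, 32345187 to 32355289), the last component of the complement pore. It stood at 28.8, 27 and 27.8 FPKM in siblings and 21.1, 24.3 and 16.6 in mutants at 5 dpf. At 7 dpf it stood at 42.2, 45.1 and 53.5 in siblings and 10.16, 10.3 and 6.75 in mutants. The groups did not overlap at either age, and they moved apart: *c9* rose in siblings by 0.74 (adjusted p = 0.0111) and fell in mutants by 1.15 (adjusted p = 0.00241). The difference between the effects was −1.89 ± 0.26 (adjusted p = 0.0644).

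PPP1R3C (ENSDARG00000014554, chromosome 12, 16281312 to 16288285) encodes a subunit that brings protein phosphatase 1 to glycogen. At 5 dpf siblings (13.4, 12.4 and 15.4 FPKM) and mutants (13.4, 14.6 and 15.2) overlapped. At 7 dpf it was at 24.2, 21.9 and 23.1 in siblings and 10.8, 9.38 and 9.49 in mutants, with no overlap. It rose with age in siblings (adjusted p = 0.00111), fell in mutants (adjusted p = 0.0172), and its difference was −1.25 ± 0.17 (adjusted p = 0.0644).

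GNB5 (ENSDARG00000055377, chromosome 18, 39067575 to 39105519) encodes a G protein beta subunit that in vertebrate photoreceptors helps to switch off the light response. It was at 4.35, 5.45 and 6.84 FPKM in siblings and 2.51, 3.41 and 2.18 in mutants at 5 dpf, and at 1.52, 0.916 and 1.18 in siblings and 4.17, 4.44 and 2.69 in mutants at 7 dpf. The order of the genotypes was reversed between the ages without overlap, which held in this direction for 0.376% of all tested genes and in the other for 0.423%. GNB5 fell in siblings by 1.82 (adjusted p = 0.000191), its change in mutants was 0.41 (adjusted p = 0.288), and the difference was 2.23 ± 0.32 (adjusted p = 0.0691).

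**Figure D2:**
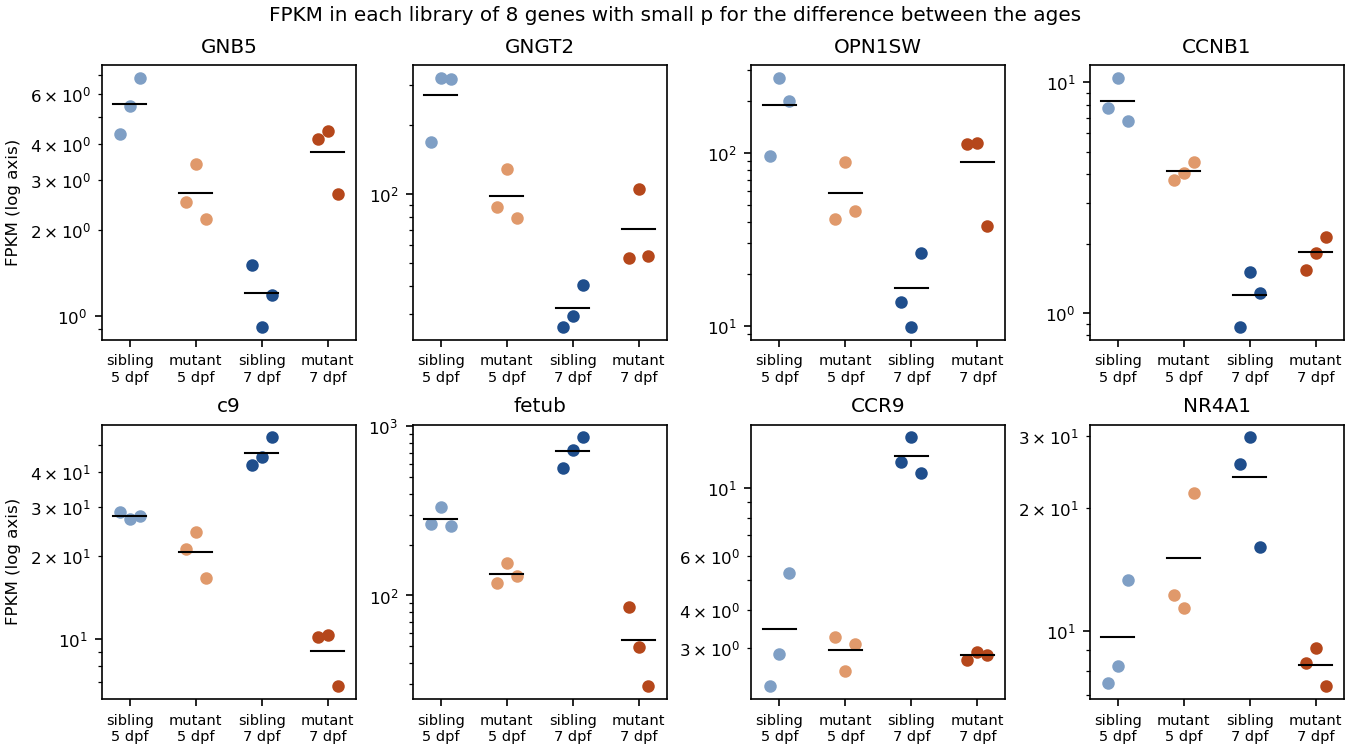
FPKM in each library (points, log axis with its own range in each panel) of 8 genes with small p for the difference between the ages, for siblings and mutants at 5 and 7 dpf, with the mean of each group as a line. In the upper row the mutants lie below the siblings at 5 dpf and above them at 7 dpf, and in the lower row the siblings at 7 dpf lie above the mutants at 7 dpf.

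Most of the differences had their larger part in the siblings. Of the 1248 genes on the higher side, 558 (44.7%) fell in siblings from 5 to 7 dpf while their change in mutants was not called, against 8.28% of all tested genes. A further 219 fell in both genotypes. Of the 1207 genes on the lower side, 599 (49.6%) rose in siblings while their change in mutants was not called, against 8.1% of all tested genes, and 105 rose in both. The absolute change was larger in siblings than in mutants for 973 of the 1248 genes (78%) and 902 of the 1207 (74.7%), and for 62.5% of all tested genes. The difference is computed from these same changes, so the shares describe its parts and test nothing. Seen by age, 902 of the 1248 genes had an effect called at neither age, 228 were higher in mutants at 7 dpf only and 104 lower at 5 dpf only. Of the 1207 genes, 874 were called at neither age, 245 were lower in mutants at 7 dpf only and 59 higher at 5 dpf only.

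**Figure D3:**
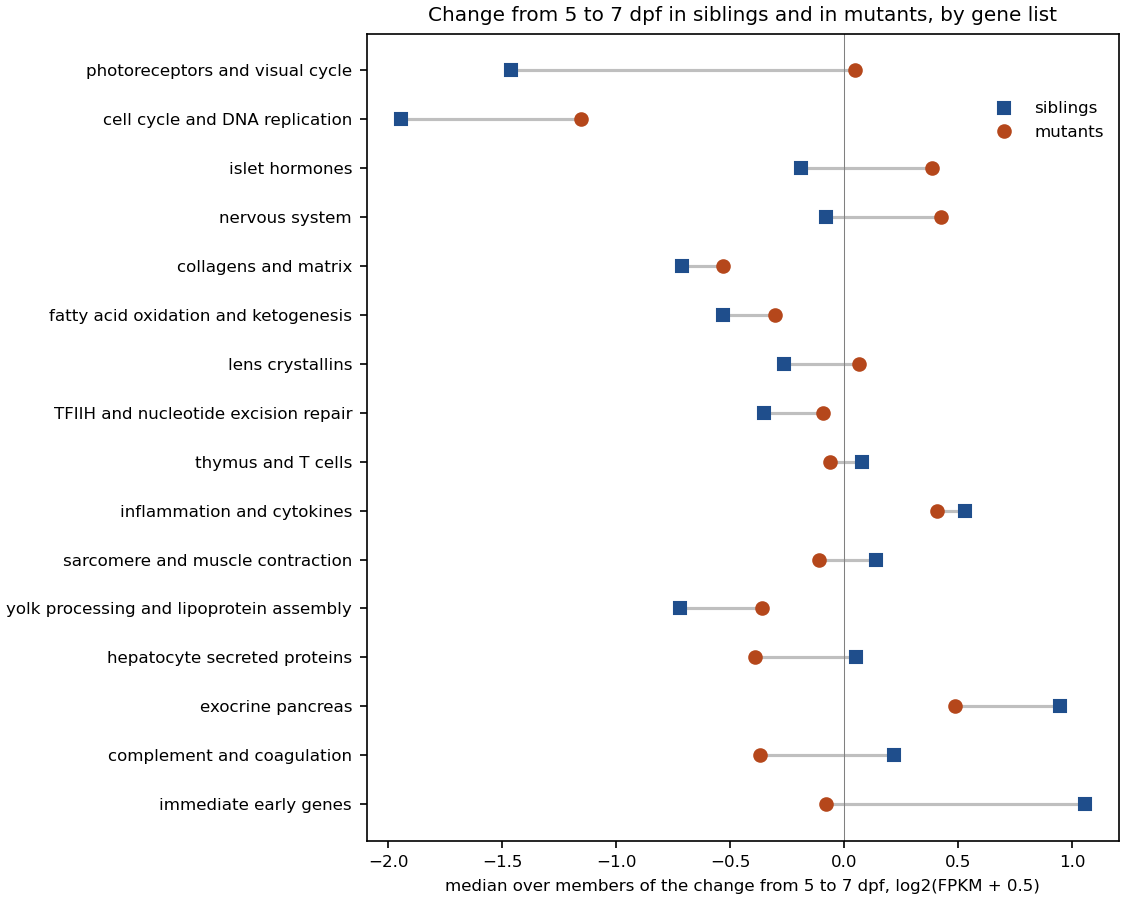
Median over the members of each gene list of the change from 5 to 7 dpf on the log2(FPKM + 0.5) scale (horizontal axis) in siblings (squares) and mutants (circles). The distance between the symbols is widest for photoreceptor genes, where the medians were −1.46 in siblings and 0.05 in mutants, and for immediate early genes, where they were 1.05 and −0.08.

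Genes of photoreceptors and the visual cycle had the highest median of the 42 lists. Of 72 matched genes 53 were tested, and 36 of these were on the higher side at the unadjusted threshold (67.9%, against 5.28% of all tested genes) and 0 on the lower. Their median difference was 1.33, with quartiles of 0.81 and 2.37, where all tested genes had a median of −0.01 and quartiles of −0.27 and 0.27. The effect was below 0 at 5 dpf and above 0 at 7 dpf for 44 of the 53 genes, a pattern that 20.4% of all tested genes had. The median effect was −0.86 at 5 dpf and 0.64 at 7 dpf. In siblings 38 of the 53 genes fell with age and 0 rose, and in mutants 2 fell and 0 rose. Few of the single effects were called: 2 lower and 1 higher at 5 dpf, and 6 higher at 7 dpf. The summed level of the list was 628 to 1185 FPKM in siblings and 309 to 504 in mutants at 5 dpf, and 122 to 242 in siblings and 207 to 475 in mutants at 7 dpf. The groups thus did not overlap at 5 dpf and overlapped at 7 dpf, where the third mutant library was the low one in the median over the list (−0.66, against 0.25 and 0.22 in the other two).

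The genes behind these counts span the whole light response, from the pigment to the enzymes that renew it. OPN1SW (ENSDARG00000045677, chromosome 4, 13577665 to 13580348), a cone opsin for short wavelengths, was not matched by the list and had the largest difference of the named genes. Its FPKM was 95.4, 272 and 199 in siblings and 41.4, 88.5 and 46.3 in mutants at 5 dpf, and 13.8, 9.83 and 26.3 in siblings and 113, 115 and 37.8 in mutants at 7 dpf. The mutants were below the siblings at 5 dpf and above them at 7 dpf, with no overlap. OPN1SW fell in siblings by 3.45 (limma adjusted p = 0.000533), was higher in mutants at 7 dpf by 2.33 (adjusted p = 0.0201), and the difference was 3.96 ± 0.72 (adjusted p = 0.179).

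GNGT2, the gamma subunit of cone transducin, was at 170, 323 and 320 FPKM in siblings and 88.1, 129 and 78.9 in mutants at 5 dpf. At 7 dpf it was at 26.3, 29.5 and 40.2 in siblings and 53, 105 and 53.9 in mutants. It was lower in mutants at 5 dpf (adjusted p = 0.033), above the siblings without overlap at 7 dpf (adjusted p = 0.0765), and the difference was 2.50 ± 0.45. Opsin copies are alike in sequence, and the sources used here do not say how reads that match several copies were counted, so the values of single opsins are uncertain.

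RPE65, the isomerase of the visual cycle in the pigment epithelium, did not differ by genotype at 5 dpf beyond the spread (21.6, 22 and 40.8 FPKM in siblings and 29.7, 18.3 and 16.8 in mutants). At 7 dpf siblings had 4.21, 2.3 and 5.57 and mutants 23.7, 26.9 and 12, and RPE65 was called higher in mutants (2.23, adjusted p = 0.00395). The receptor kinase *grk1b* was at 3.13, 3.87 and 6.54 FPKM in siblings and 1.45, 2.55 and 1.93 in mutants at 5 dpf, and at 0.435, 0.189 and 0.7 in siblings and 3.49, 3.38 and 0.931 in mutants at 7 dpf. The genotypes changed their order without overlap, and the difference was 2.60 ± 0.55. The transducin beta gene *gnb3b* had a difference of 3.05 ± 0.70, with 3.65, 3.82 and 10.1 FPKM in siblings and 28.7, 25.4 and 8.08 in mutants at 7 dpf. In *gnb3b* as in OPN1SW the third mutant library at 7 dpf was the lowest of its group. RPE65, *grk1b*, *gnb3b* and GNGT2 are among the 5 members of smallest p and were chosen after their values were seen.

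Other tissues of the eye and the nervous system did not share the size of this difference. Lens crystallin and lens membrane genes were low in mutants at both ages, with a median effect of −2.71 at 5 dpf and −2.41 at 7 dpf and with 35 and 33 of 49 genes called lower. Their median difference was 0.16, and 7 genes were on the higher side (14.3%, against 5.28% of all tested genes) and 0 on the lower. CRYBB1, a beta crystallin, was at 12, 19.2 and 15 FPKM in siblings and 0.637, 0.934 and 0.472 in mutants at 5 dpf, and at 10.1, 9.14 and 23.9 in siblings and 3.65, 2.88 and 4.28 in mutants at 7 dpf. It was called lower in mutants at both ages and rose in mutants between them by 1.80 (adjusted p = 0.00413), with a difference of 2.01 ± 0.44. The lens count rested on single libraries: it was 3 without 5 dpf mutant library 3, 7 dpf mutant library 1, 5 dpf sibling library 3 or 7 dpf sibling library 2, 4 without 7 dpf sibling library 1, and 12 without 7 dpf sibling library 3. Without 7 dpf mutant library 1, 5 lens genes were on the lower side, and the median over the list ranged from −0.33 to 0.52 when single libraries were left out.

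Of 49 tested genes of the nervous system 40 had a difference above 0, with a median of 0.47. On the higher side were 3 (6.12%, near the 5.28% of all tested genes), and 0 were on the lower. SNAP25 (ENSDARG00000058117), a protein of synaptic vesicle release, was at 6.35, 13.2 and 12.2 FPKM in siblings and 4.93, 7.39 and 6.91 in mutants at 5 dpf, and at 6.77, 5.01 and 7.52 in siblings and 13.2, 8.62 and 8.5 in mutants at 7 dpf. The groups overlapped at 5 dpf and not at 7 dpf, and the difference was 1.24 ± 0.39. No effect on a nervous system gene was called at either age. The count of 3 became 9 without 7 dpf mutant library 3, 11 without 5 dpf sibling library 1 and 5 without 7 dpf sibling library 3.

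**Figure D4:**
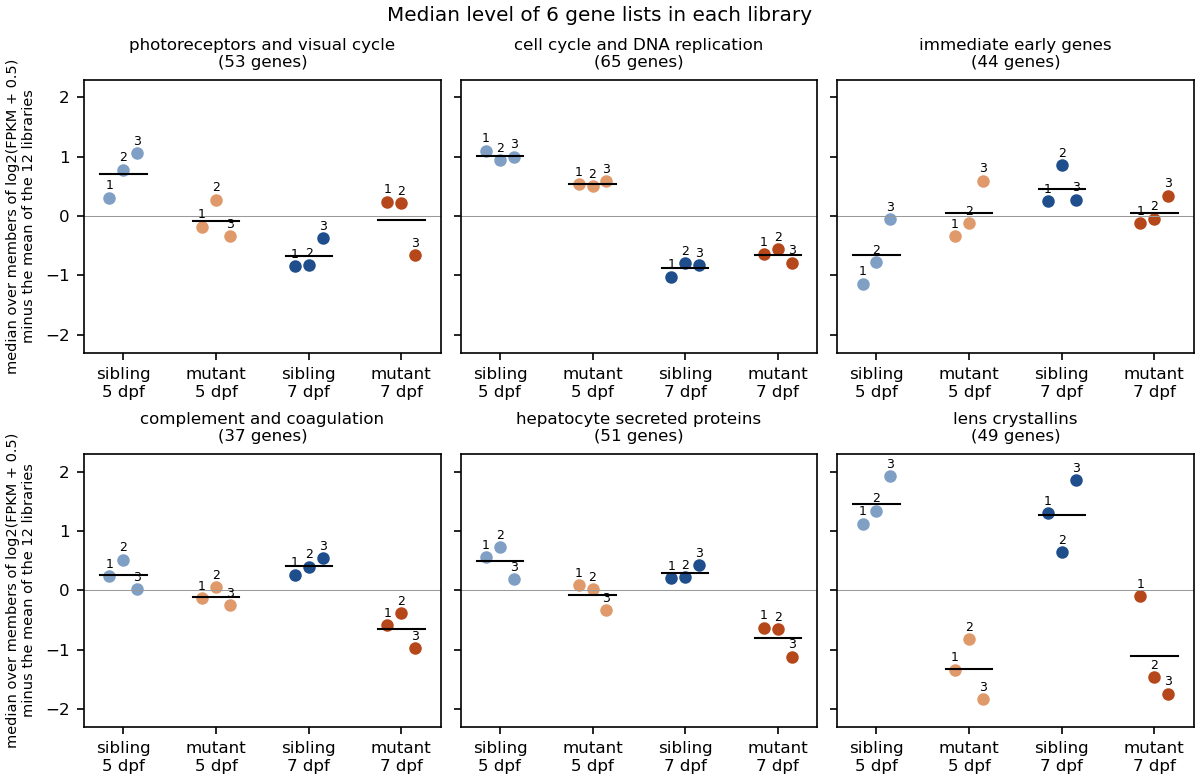
Median over the members of 6 gene lists of log2(FPKM + 0.5) minus the mean of the 12 libraries (vertical axis) in each library (points, labelled by replicate number) of siblings and mutants at 5 and 7 dpf, with the mean of each group as a line. The group means of photoreceptor, cell cycle and immediate early genes lie in a different order of the genotypes at the 2 ages. Single libraries overlap at 7 dpf for photoreceptor genes and at both ages for immediate early genes. Complement genes overlap at 5 dpf and lie apart at 7 dpf. Hepatocyte genes lie apart at both ages and farther at 7 dpf, and lens genes lie low in mutants at both ages.

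Genes of the cell cycle and DNA replication fell with age in both genotypes. In siblings 64 of 65 tested genes fell from 5 to 7 dpf and in mutants 57 fell, with median changes of −1.94 and −1.15. At 5 dpf the mutants were lower by a median of 0.48 and 13 genes were called lower, and at 7 dpf the median effect was 0.23, with 1 gene called lower and 1 higher. On the difference 35 of 65 genes were on the higher side (53.8%) and 0 on the lower, with a median of 0.68. The effect was below 0 at 5 dpf and above 0 at 7 dpf for 48 genes. The summed level of the list was 925 to 1058 FPKM in siblings and 646 to 723 in mutants at 5 dpf, and 262 to 298 in siblings and 271 to 320 in mutants at 7 dpf. In this sum the groups were thus apart at 5 dpf, and at 7 dpf they overlapped, both far below their levels at 5 dpf. In the median over the list they did not overlap at 7 dpf. There the mutants were at −0.64, −0.56 and −0.78 and the siblings at −1.02, −0.79 and −0.83.

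CCNB1 (ENSDARG00000051923, chromosome 5, 54711027 to 54714789), the cyclin of entry into mitosis, was at 7.71, 10.5 and 6.79 FPKM in siblings and 3.76, 4.04 and 4.51 in mutants at 5 dpf, and at 0.867, 1.5 and 1.22 in siblings and 1.53, 1.82 and 2.14 in mutants at 7 dpf. It was called lower in mutants at 5 dpf (−0.92, adjusted p = 0.0226), lay above the siblings without overlap at 7 dpf (0.47, adjusted p = 0.195), and had a difference of 1.39 ± 0.27. The spindle motor *kif11* followed the same course, with 9.23, 10.5 and 9.41 FPKM in siblings and 4.01, 5.93 and 5.19 in mutants at 5 dpf and 1.03, 1.56 and 1.18 in siblings and 1.55, 2.66 and 1.81 in mutants at 7 dpf. Its groups were apart at 5 dpf and overlapped at 7 dpf, and its difference was 1.4 ± 0.27. The mitotic kinase AURKB had a difference of 1.2 ± 0.28, with 0.649, 1.24 and 1.07 FPKM in siblings and 1.72, 2.36 and 1.53 in mutants at 7 dpf. UBE2C, which marks mitotic proteins for destruction, had 1.28 ± 0.30 and was called lower in mutants at 5 dpf (adjusted p = 0.0295).

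2 chromatin proteins that are abundant in dividing cells were also lower in mutants at 5 dpf, at higher levels and with little spread. Unlike CCNB1 and AURKB, neither lay above the siblings without overlap at 7 dpf. HMGN2 (ENSDARG00000099572, chromosome 16, 51180938 to 51184126), which binds nucleosomes, was at 610, 678 and 566 FPKM in siblings and 300, 324 and 294 in mutants at 5 dpf, and at 143, 158 and 155 in siblings and 164, 170 and 143 in mutants at 7 dpf. It was lower in mutants at 5 dpf by 1.01 (adjusted p = 0.00137) and its effect at 7 dpf was 0.06 (adjusted p = 0.85). Its difference was 1.07 ± 0.18 (adjusted p = 0.169). The DNA-bending protein *hmgb2b* was at 258, 224 and 220 FPKM in siblings and 130, 133 and 136 in mutants at 5 dpf, and at 71.7, 71.6 and 68.7 in siblings and 61.5, 67.9 and 60.31 in mutants at 7 dpf. Here the mutants were below the siblings at both ages, by 0.81 (adjusted p = 0.00219) and 0.16 (adjusted p = 0.473). RRM2, the small subunit of the enzyme that makes deoxynucleotides, is listed in 2 copies with differences of 1.75 ± 0.46 (ENSDARG00000078069) and 1.22 ± 0.38 (ENSDARG00000020711), and both copies were called lower in mutants at 5 dpf. The copies are alike in sequence, so how reads were split between them is uncertain.

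Of 21 tested genes of TFIIH and nucleotide excision repair 6 were on the higher side (28.6%, against 5.28% of all tested genes) and 0 on the lower, with a median of 0.07. RPA1, RPA2 and RPA3, which coat single-stranded DNA, and PCNA, the sliding clamp, serve replication as well, and PCNA is also on the cell cycle list. RPA2 was at 19.3, 20.1 and 15.1 FPKM in siblings and 15.1, 11.5 and 11.7 in mutants at 5 dpf, and at 3.52, 3.8 and 4.5 in siblings and 5.04, 5.73 and 6.84 in mutants at 7 dpf. At 7 dpf the mutants were above all siblings, and the difference was 1.02 ± 0.24. The other 2 genes were the nuclease subunit ERCC1 (0.52 ± 0.20) and the damage-binding protein XPA (0.67 ± 0.26). Among 6 tested subunits of TFIIH the differences ranged from −0.31 to 0.15, and the smallest unadjusted p was 0.124. ERCC2 itself was at 5.23, 3.78 and 3.8 FPKM in siblings and 3.14, 2.97 and 2.56 in mutants at 5 dpf, and at 6.38, 4.26 and 5.06 in siblings and 3.57, 2.96 and 3.07 in mutants at 7 dpf. The mutants were below the siblings at each age, and the difference between the effects was −0.14 ± 0.24 (limma adjusted p = 0.882). The 6 repair genes on the higher side were 3 without 5 dpf mutant library 2.

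Of 64 tested collagens and matrix genes 11 were on the higher side (17.2%, against 5.28% of all tested genes) and 1, FN1 (fibronectin, ENSDARG00000006526), on the lower, with a median of 0.30. In siblings 44 of the 64 fell with age and 1 rose, and in mutants 23 fell and 0 rose. The type IX collagen gene *col9a3*, a cartilage collagen, was at 55.2, 52.1 and 50.3 FPKM in siblings and 41, 49.9 and 44.6 in mutants at 5 dpf, and at 13.1, 11.4 and 7.54 in siblings and 15.1, 27.4 and 18 in mutants at 7 dpf. The genotypes changed their order without overlap, it was called higher in mutants at 7 dpf (0.87, adjusted p = 0.0433), and the difference was 1.09 ± 0.31. The differences of COL9A1, COL9A2 and COL2A1 (ENSDARG00000069093), which encode other collagen chains of cartilage, were 0.84 ± 0.25, 0.68 ± 0.24 and 0.96 ± 0.29. MATN1, a cartilage matrix protein, was lower in mutants at 5 dpf (27, 48.5 and 45.1 FPKM in siblings and 14.7, 19.9 and 18.6 in mutants, adjusted p = 0.0314) and overlapped the siblings at 7 dpf (12.4, 11.2 and 9.86 in siblings and 16.1, 12.1 and 8.48 in mutants). The count of 11 was 5 without 7 dpf mutant library 2, 7 without 5 dpf mutant library 1, 5 dpf sibling library 2 or 7 dpf sibling library 3, and 18 without 7 dpf mutant library 3.

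Of 35 tested genes of fatty acid oxidation and ketogenesis 19 fell with age in siblings and 3 rose, and in mutants 8 fell and 4 rose. Of all tested genes 13% fell and 12.3% rose in siblings, and 6.06% fell and 5.36% rose in mutants. The median effect was 0.10 at 5 dpf, with 0 genes called by limma, and 0.37 at 7 dpf, with 7 called higher. On the difference 9 genes were on the higher side (25.7%, against 5.28% of all tested genes) and 0 on the lower, and the median was 0.18. ECI1 (ENSDARG00000018002, chromosome 3, 27770110 to 27777671), an isomerase for unsaturated fatty acids, was at 41.7, 48.8 and 38.3 FPKM in siblings and 43, 31 and 36.3 in mutants at 5 dpf, and at 10.5, 10.1 and 10.9 in siblings and 18.9, 25.2 and 18.5 in mutants at 7 dpf. The groups overlapped at 5 dpf and were apart at 7 dpf (0.94, adjusted p = 0.00452), and the difference was 1.17 ± 0.23. SLC25A20, the carnitine carrier of the mitochondrion, was at 20.3, 17.4 and 16.1 FPKM in siblings and 23.6, 32.1 and 33.1 in mutants at 7 dpf. It was called higher in mutants at that age (0.70, adjusted p = 0.0223), and the difference was 0.81 ± 0.22. HADHA (ENSDARG00000060594) and its copy *hadhaa*, which encode the trifunctional enzyme of the pathway, were also called higher at 7 dpf and had differences of 0.64 ± 0.20 and 0.85 ± 0.26. ANGPTL4, a secreted inhibitor of lipoprotein lipase on this list, was at 22.1, 20.3 and 18.1 FPKM in siblings and 48.5, 51.5 and 45 in mutants at 7 dpf, with no overlap.

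Islet hormone genes and their regulators all had a difference above 0 (15 of 15), with a median of 0.60, and 6 were on the higher side (40%, against 5.28% of all tested genes). PYY (ENSDARG00000035832), a peptide hormone of gut and islet, was at 6.57, 2.99 and 2.3 FPKM in siblings and 2.81, 3.04 and 2.23 in mutants at 5 dpf, and at 4.49, 3.48 and 1.94 in siblings and 12.7, 10 and 10.6 in mutants at 7 dpf. It rose with age in mutants by 1.86 (adjusted p = 0.00389), was higher in mutants at 7 dpf (adjusted p = 0.0101), and had a difference of 2.04 ± 0.45. GCG (ENSDARG00000040907), a glucagon gene, was called higher in mutants at both ages, with 5.11, 6.27 and 5.74 FPKM against 0.329, 2.21 and 1.41 at 5 dpf and 15.7, 10.5 and 8.55 against 0.897, 1.17 and 0.656 at 7 dpf. Its difference was 1.15 ± 0.50. Another glucagon gene, *gcga*, was also called higher in mutants at both ages, by 1.97 and 2.18, with a difference of only 0.21 ± 0.29. For the insulin gene *ins* the difference was 0.11 ± 1.05, with 0, 5.55 and 0 FPKM in siblings at 7 dpf. Without single libraries the *ins* difference ranged from −0.49 to 1.31. NEUROD1 and INSM1 (ENSDARG00000091756), transcription factors of endocrine cells and of neurons and the retina, were on the higher side from the other end: both were called lower in mutants at 5 dpf, by 2.07 and 2.0, and their effects at 7 dpf were −0.75 and −0.72 and were not called. In NEUROD1 the siblings had 10.8, 13.9 and 15.8 FPKM and the mutants 1.73, 4.1 and 3 at 5 dpf, and 5.39, 4.86 and 8.28 against 5.27, 2.65 and 2.69 at 7 dpf.

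Immediate early genes, which cells switch on within minutes of a stimulus without new protein, had the lowest median of the 42 lists. Of 44 tested genes 21 were on the lower side (47.7%, against 5.1% of all tested genes) and 0 on the higher, with a median of −1.09, and 43 had a difference below 0. The median effect was 0.69 at 5 dpf and −0.48 at 7 dpf, and it was above 0 and then below 0 for 34 genes, where 21.5% of all tested genes had that order. limma called 4 genes higher at 5 dpf and 1 lower at 7 dpf. In siblings 19 of 44 rose with age, and in mutants 3 rose and 1 fell. The summed level was 635 to 1806 FPKM in siblings and 1438 to 3087 in mutants at 5 dpf, and 2702 to 4245 in siblings and 1785 to 2822 in mutants at 7 dpf, so the groups overlapped at both ages.

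NR4A1 (ENSDARG00000000796, chromosome 23, 32149269 to 32194397), a nuclear receptor of this class, was at 7.49, 8.23 and 13.3 FPKM in siblings and 12.3, 11.4 and 21.7 in mutants at 5 dpf, and at 25.6, 29.8 and 16 in siblings and 8.38, 9.11 and 7.34 in mutants at 7 dpf. It was the 1 gene of the list called lower in mutants at 7 dpf (−1.43, adjusted p = 0.0121), and its difference was −2.03 ± 0.40 (adjusted p = 0.179). The AP-1 subunit FOSL2 was higher in mutants at 5 dpf without overlap (3.59, 2.79 and 4.35 FPKM in siblings and 9.86, 13.1 and 10.8 in mutants, adjusted p = 0.00202) and overlapped at 7 dpf (9.82, 8.96 and 6.29 in siblings and 9.52, 9.08 and 13.5 in mutants). Its siblings rose to the level of the mutants, and its difference was −1.2 ± 0.30. EGR3, a zinc finger factor, took the other course: at 5 dpf siblings had 0.398, 0.495 and 2.58 FPKM and mutants 3.73, 5.58 and 8.3, at 7 dpf siblings had 0.839, 2.69 and 1.36 and mutants 1.38, 1.02 and 1.98, and EGR3 fell with age in mutants (adjusted p = 0.0367). CEBPD, a transcription factor of the acute phase, was at 139, 177 and 457 FPKM in siblings and 368, 427 and 638 in mutants at 5 dpf, and at 914, 1227 and 1006 in siblings and 617, 652 and 806 in mutants at 7 dpf. It rose in siblings by 2.21 (adjusted p = 0.00104), and the difference was −1.65 ± 0.51. These 4 genes and *ier2b* (−3.06 ± 0.97) are the members of smallest p.

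The level of the immediate early genes followed the replicate number at 5 dpf. Over the list the median relative to all libraries was −1.14, −0.78 and −0.05 in sibling replicates 1, 2 and 3 and −0.33, −0.12 and 0.60 in the mutant replicates of the same numbers. The third library was the highest in both genotypes, and in all 3 same-numbered pairs the mutant library was above its sibling library. At 7 dpf the values were 0.25, 0.85 and 0.27 in siblings and −0.12, −0.05 and 0.34 in mutants. What the numbers stand for at 5 dpf was not tested. With the replicate number as a block at 5 dpf, 27 genes were on the lower side. The count of 21 was 10 without 5 dpf mutant library 3, 11 without 5 dpf sibling library 2 or 7 dpf sibling library 2, and 13 without 5 dpf sibling library 1, and the median over the list stayed between −1.31 and −0.84 when any 1 library was left out.

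Inflammation and cytokine genes had median effects of 0.73 at 5 dpf and 0.44 at 7 dpf. limma called 6 of 51 genes higher at 5 dpf, and 5 higher and 1 lower at 7 dpf. Over all tested genes it called 0.655% higher at 5 dpf, and 1.8% higher and 3.25% lower at 7 dpf. The summed level was 274 to 582 FPKM in siblings and 691 to 1101 in mutants at 5 dpf. At 7 dpf it was 753 to 1299 in siblings and 577 to 1404 in mutants, so the groups overlapped there. The third 7 dpf mutant library was the highest in the median over the list (0.97, against 0.01 and 0.31). The median difference of the list was −0.14, with 2 genes on the higher side (3.92%) and 7 on the lower (13.7%). CEBPB and JUNB (ENSDARG00000104773) among the 7 are also on the immediate early list. The chemokine gene *cxcl8b.1*, which draws neutrophils, was at 1.45, 1.08 and 1.53 FPKM in siblings and 11, 21.7 and 3 in mutants at 5 dpf, and at 1.59, 2.37 and 3.48 in siblings and 1.16, 3.06 and 2.46 in mutants at 7 dpf. It was called higher in mutants at 5 dpf (2.39, adjusted p = 0.0313), fell in mutants between the ages (−1.89, adjusted p = 0.0382), and its difference was −2.54 ± 0.74 (adjusted p = 0.277). PTGS2 (ENSDARG00000010276), the inducible enzyme of prostaglandin synthesis, was higher in mutants at 5 dpf (4.24, 2.58 and 11.9 FPKM in siblings and 16.9, 30.8 and 16.3 in mutants, adjusted p = 0.0441), and at 7 dpf its groups overlapped (9.26, 16.5 and 7.87 in siblings and 9.15, 9.2 and 14.1 in mutants). The count of 7 was 4 without 7 dpf mutant library 1 or 5 dpf sibling library 2, 11 without 7 dpf mutant library 3 and 12 without 5 dpf sibling library 3.

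Plasma proteins of the liver moved apart between the genotypes in the median over their lists, though not in every gene. Of 37 complement and coagulation genes 4 were called lower in mutants at 5 dpf and 21 at 7 dpf, with median effects of −0.26 and −1.09. Of all tested genes 2.16% and 3.25% were called lower at these ages. On the difference 15 were on the lower side (40.5%, against 5.1% of all tested genes) and 0 on the higher, with a median of −0.67. In mutants 11 of the 37 fell with age and 2 rose, and in siblings 0 fell and 7 rose. Of all tested genes 6.06% fell and 5.36% rose in mutants, and 13% fell and 12.3% rose in siblings. The summed level was 314 to 451 FPKM in siblings and 259 to 372 in mutants at 5 dpf, and 379 to 479 in siblings and 161 to 222 in mutants at 7 dpf, so the groups overlapped at 5 dpf and were apart at 7 dpf. PLG, the precursor of the clot-dissolving enzyme plasmin, was at 36.8, 36 and 23 FPKM in siblings and 25, 28.1 and 16.6 in mutants at 5 dpf, and at 48.1, 48.6 and 50.4 in siblings and 19.4, 16.7 and 10.9 in mutants at 7 dpf. FGG, the gamma chain of fibrinogen, was at 29.4, 36.8 and 26.3 in siblings and 31.6, 30.1 and 18.2 in mutants at 5 dpf, and at 29.5, 26.9 and 38 in siblings and 9.03, 12.7 and 13.4 in mutants at 7 dpf. Both were called lower in mutants at 7 dpf only, and their differences were −1.2 ± 0.35 and −1.16 ± 0.33. The complement gene *c3a.3*, 1 of several near-identical copies and so uncertain in its share of reads, was called lower at both ages, by 1.36 and 2.4. The count of 15 was 9 when either 5 dpf mutant library 2 or 5 dpf sibling library 3 was left out.

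Over 51 genes of proteins that hepatocytes secrete, 12 were called lower in mutants at 5 dpf and 26 at 7 dpf, where 1 was called higher. The median effects were −0.44 and −1.01, and 2.16% and 3.25% of all tested genes were called lower at these ages. On the difference 15 were on the lower side (29.4%, against 5.1% of all tested genes) and 0 on the higher, with a median of −0.44. The summed level at 7 dpf was 8662 to 9219 FPKM in siblings and 2788 to 4242 in mutants. The gene *fetub* (ENSDARG00000053973, chromosome 22, 37888249 to 37900135) encodes fetuin-B, a secreted protease inhibitor. It was at 265, 333 and 258 FPKM in siblings and 119, 156 and 130 in mutants at 5 dpf, and at 565, 723 and 866 in siblings and 85.1, 49.7 and 29 in mutants at 7 dpf. It rose in siblings by 1.32 (adjusted p = 0.00861), fell in mutants by 1.42 (adjusted p = 0.0124), and had a difference of −2.74 ± 0.44 (adjusted p = 0.127). The C1 inhibitor gene *serping1* (ENSDARG00000058053, chromosome 8, 13960655 to 13972626) had groups that overlapped at 5 dpf and were apart at 7 dpf: 3.01, 3.39 and 2.32 in siblings and 3.71, 2.91 and 2.51 in mutants at 5 dpf, and 4.95, 4.73 and 5.27 in siblings and 2.01, 1.3 and 1.22 in mutants at 7 dpf. Its difference was −1.53 ± 0.27 (adjusted p = 0.173). The protease inhibitor gene *serpina1* (−1.99 ± 0.44) was at 165, 175 and 202 FPKM in siblings and 31.6, 20.2 and 14.8 in mutants at 7 dpf. The transferrin gene *tfa* went the other way. Its effects were −2.88 at 5 dpf and −2.17 at 7 dpf, and its difference was 0.71 ± 0.44.

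Apolipoproteins carry lipid out of yolk, gut and liver. Among them *apoa1b*, *apoc1*, *apoa4b.1* and *apoa2* were not called higher with age in siblings and fell in mutants. The gene *apoa1b* (ENSDARG00000101324, chromosome 15, 102925 to 108414), the main protein of high-density lipoprotein, was at 583, 462 and 438 FPKM in siblings and 477, 429 and 325 in mutants at 5 dpf, and at 483, 553 and 494 in siblings and 110, 81.2 and 32.1 in mutants at 7 dpf. Its change was 0.05 in siblings (adjusted p = 0.93) and −2.61 in mutants (adjusted p = 0.00101), and its difference was −2.66 ± 0.49 (adjusted p = 0.179). The genes *apoc1*, *apoa4b.1* and *apoa2* fell in both genotypes, by 1.01, 1.27 and 1.15 in siblings and by 2.31, 2.70 and 2.69 in mutants. All 3 were called lower in mutants at 7 dpf and not at 5 dpf, and their differences were −1.30 ± 0.33, −1.43 ± 0.39 and −1.54 ± 0.46. CETP, which moves cholesterol esters between lipoproteins, rose in siblings by 1.63 (adjusted p = 0.000137) from 4.53, 4.38 and 3.37 FPKM to 13.6, 12 and 15.6, and it stood at 4.35, 4.5 and 3.56 and then 7.28, 8.27 and 4.88 in mutants. Over the list of yolk processing and lipoprotein assembly, 9 of 30 genes were on the lower side (30%) and 2 on the higher (6.67%), with a median of −0.44, and limma called 1 gene lower in the younger mutants. In the older mutants it called 7 lower and 3 higher. The median was −0.09 without 5 dpf sibling library 3, where 5 genes were on the higher side and 7 on the lower.

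Genes of the exocrine pancreas and of enterocytes were mostly lower in mutants than in siblings at both ages. Of all tested genes 2.16% were called lower at 5 dpf and 3.25% at 7 dpf. Of 35 genes of the exocrine pancreas 28 were called lower at 5 dpf and 29 at 7 dpf, with median effects of −3.60 and −4.10. Their median difference was −0.50, with 1 gene on the higher side (2.86%) and 0 on the lower. These counts rested on single libraries: 11 genes were on the lower side without 7 dpf mutant library 1, and the median ranged from −0.69 to −0.18 when any 1 library was left out. Of 54 enterocyte genes 34 and 38 were called lower, with median effects of −1.26 and −1.45, a median difference of −0.19 and 5 genes on the lower side (9.26%) and 1 on the higher (1.85%). The 5 became 9 without 5 dpf sibling library 1 and 3 without 5 dpf mutant library 2, 7 dpf mutant library 2 or 3, 5 dpf sibling library 3 or 7 dpf sibling library 2, and the 1 became 4 without 5 dpf sibling library 3. In the pancreas the siblings rose by a median of 0.95 and the mutants by a median of 0.49. The summed level of pancreatic genes was 9255 to 17304 FPKM in siblings and 218 to 955 in mutants at 5 dpf, and 24881 to 30919 in siblings and 375 to 2489 in mutants at 7 dpf.

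Of 12 tested genes of thymus and T cells 2 were called lower in mutants at 5 dpf and 5 at 7 dpf. Of all tested genes 2.16% and 3.25% were called lower at these ages. The median difference was −0.05, with 4 genes on the lower side (33.3%) and 1 on the higher (8.33%). CCR9 (ENSDARG00000055186, chromosome 2, 32796873 to 32799083), a chemokine receptor that guides T cell precursors to the thymus, was at 2.24, 2.85 and 5.26 FPKM in siblings and 3.26, 2.51 and 3.08 in mutants at 5 dpf, and at 12.2, 14.7 and 11.2 in siblings and 2.74, 2.91 and 2.84 in mutants at 7 dpf. It rose in siblings by 1.81 (adjusted p = 0.00022), its change in mutants was −0.04, and its difference was −1.85 ± 0.32 (adjusted p = 0.173). Among markers of neutrophils and macrophages 5 of 32 were on the higher side (15.6%) and 6 on the lower (18.8%), against 5.28% and 5.1% of all tested genes. The antigen-presentation chaperones *cd74a* and *cd74b* rose in siblings, by 1.87 and 0.97, and their changes in mutants of 0.62 and 0.30 were not called. The gene *cd74a* was at 1.58, 2.59 and 1.61 FPKM in siblings and 0.708, 1.04 and 1.45 in mutants at 5 dpf, and at 9.18, 8.52 and 7.08 in siblings and 1.75, 2.19 and 1.67 in mutants at 7 dpf. The oxidase subunit *cyba* went the other way, with a fall in siblings (−0.95, adjusted p = 0.00897) and 9.48, 10.6 and 8.88 FPKM in siblings against 17.8, 22.7 and 32 in mutants at 7 dpf. The count of 5 was 2 without 7 dpf mutant library 2 and 3 without 5 dpf mutant library 2, 5 dpf sibling library 3 or 7 dpf sibling library 1 or 2, and the count of 6 was 3 without 5 dpf mutant library 2 or 7 dpf sibling library 2.

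Genes of the sarcomere and of muscle contraction mostly had a difference below 0, by small amounts. Of 90 tested genes 68 had a difference below 0, and the median was −0.27. On the lower side were 17 (18.9%, against 5.1% of all tested genes) and on the higher side 3 (3.33%). The slow myosin gene *smyhc1* was at 42, 50.7 and 51.3 FPKM in siblings and 62.9, 60.1025 and 79.7 in mutants at 5 dpf, and at 128, 117 and 92.6 in siblings and 88.2, 61.1 and 89.7 in mutants at 7 dpf. The mutants were above all siblings at 5 dpf and below all of them at 7 dpf, neither effect was called, and the difference was −0.99 ± 0.26. The troponin gene *tnnt2d* and the myosin-binding gene MYBPC1 also changed order without overlap, with differences of −1.22 ± 0.34 and −0.64 ± 0.18. At 7 dpf the highest mutant and lowest sibling nearly met, at 128.16 and 128.45 FPKM in *tnnt2d* and 8.5108 and 8.5116 in MYBPC1. No effect of either gene was called at either age. The Z-disc gene *synpo2b* (ENSDARG00000077157, chromosome 1, 25959084 to 25966411) fell in both genotypes, from 7.39, 7.1 and 7.54 FPKM to 5.68, 4.76 and 4.2 in siblings and from 8.9, 8.12 and 7.92 to 2.71, 2.18 and 2.41 in mutants. Its difference was −1.04 ± 0.19 (adjusted p = 0.179). The myoglobin gene *mb* was on the higher side (0.78 ± 0.23) and was called higher in mutants at 7 dpf. The count of 17 was 9 without 7 dpf mutant library 2, 11 without 7 dpf sibling library 1 or 2, and 28 without 7 dpf mutant library 3.

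The other genes of smallest p on the higher side fell in siblings and stood higher in mutants at 7 dpf. KLF11 (ENSDARG00000013794, chromosome 17, 32365941 to 32370047), a Krüppel-like transcription factor, was at 10.7, 9.93 and 13.7 FPKM in siblings and 11.7, 11.3 and 17.2 in mutants at 5 dpf, and at 2.5, 2.13 and 3.09 in siblings and 12.2, 10.1 and 10.1 in mutants at 7 dpf. Its effect of 1.89 at 7 dpf was called (adjusted p = 0.000149), and the difference was 1.68 ± 0.27 (adjusted p = 0.127). The alpha tubulin gene *tuba1b* (ENSDARG00000045367) was at 22.2, 30.6 and 21.8 FPKM in siblings and 18.9, 22.4 and 21.1 in mutants at 5 dpf, and at 4.44, 6.05 and 5.32 in siblings and 10.7, 11 and 12.5 in mutants at 7 dpf, with a difference of 1.29 ± 0.22. The third gene, *ly97.3* (ENSDARG00000116628), was at 30.1, 40.2 and 29.2 FPKM in siblings and 83.8, 138 and 153 in mutants at 7 dpf. It fell in siblings and rose in mutants, with a difference of 1.69 ± 0.32.

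On the lower side, *hpda* (ENSDARG00000018351), an enzyme of tyrosine breakdown, rose in both genotypes and less in mutants. It went from 19.5, 13.9 and 20.3 FPKM to 93.4, 101 and 139 in siblings and from 17.2, 15.6 and 14.7 to 32.2, 27 and 35.8 in mutants. The difference was −1.63 ± 0.26 (adjusted p = 0.127). The gene *rgs5b* (ENSDARG00000017860), which damps G protein signals, was called higher in mutants at 5 dpf (0.99, adjusted p = 0.0163), with 6.93, 4.7 and 9.22 FPKM in siblings and 12.5, 13.7 and 15.5 in mutants. At 7 dpf it was at 12.2, 13.8 and 13.8 in siblings and 8.76, 10.4 and 10.6 in mutants, below them without overlap, and the difference was −1.4 ± 0.28 (adjusted p = 0.179).

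The list of genes that the study followed in its own experiments held 26 tested identifiers, with *ercc2* among them and each copy of SLC15A1 counted. Of these, 1 was on the higher side of the difference and 1 on the lower. These shares of 3.85% each are near the 5.28% and 5.1% of all tested genes, and the median was −0.13. At each age 10 of the 26 were called lower and 3 higher. Of all tested genes 2.16% were called lower and 0.655% higher at 5 dpf, and 3.25% and 1.8% at 7 dpf. The hormone gene *sst2* (ENSDARG00000014190), a somatostatin, was on the higher side: it was at 0.963, 2.85 and 1.91 FPKM in siblings and 3.11, 3.27 and 1.99 in mutants at 5 dpf, and at 0.986, 1.86 and 0.721 in siblings and 7.31, 5.96 and 5.85 in mutants at 7 dpf. Its effect at 7 dpf was called (2.08, adjusted p = 0.00192), and the difference was 1.57 ± 0.43 (adjusted p = 0.263). By in situ hybridization the paper reported similar levels of *sst2* in mutants and siblings. The gene on the lower side was *cxcl8b.1*.

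**Figure D5:**
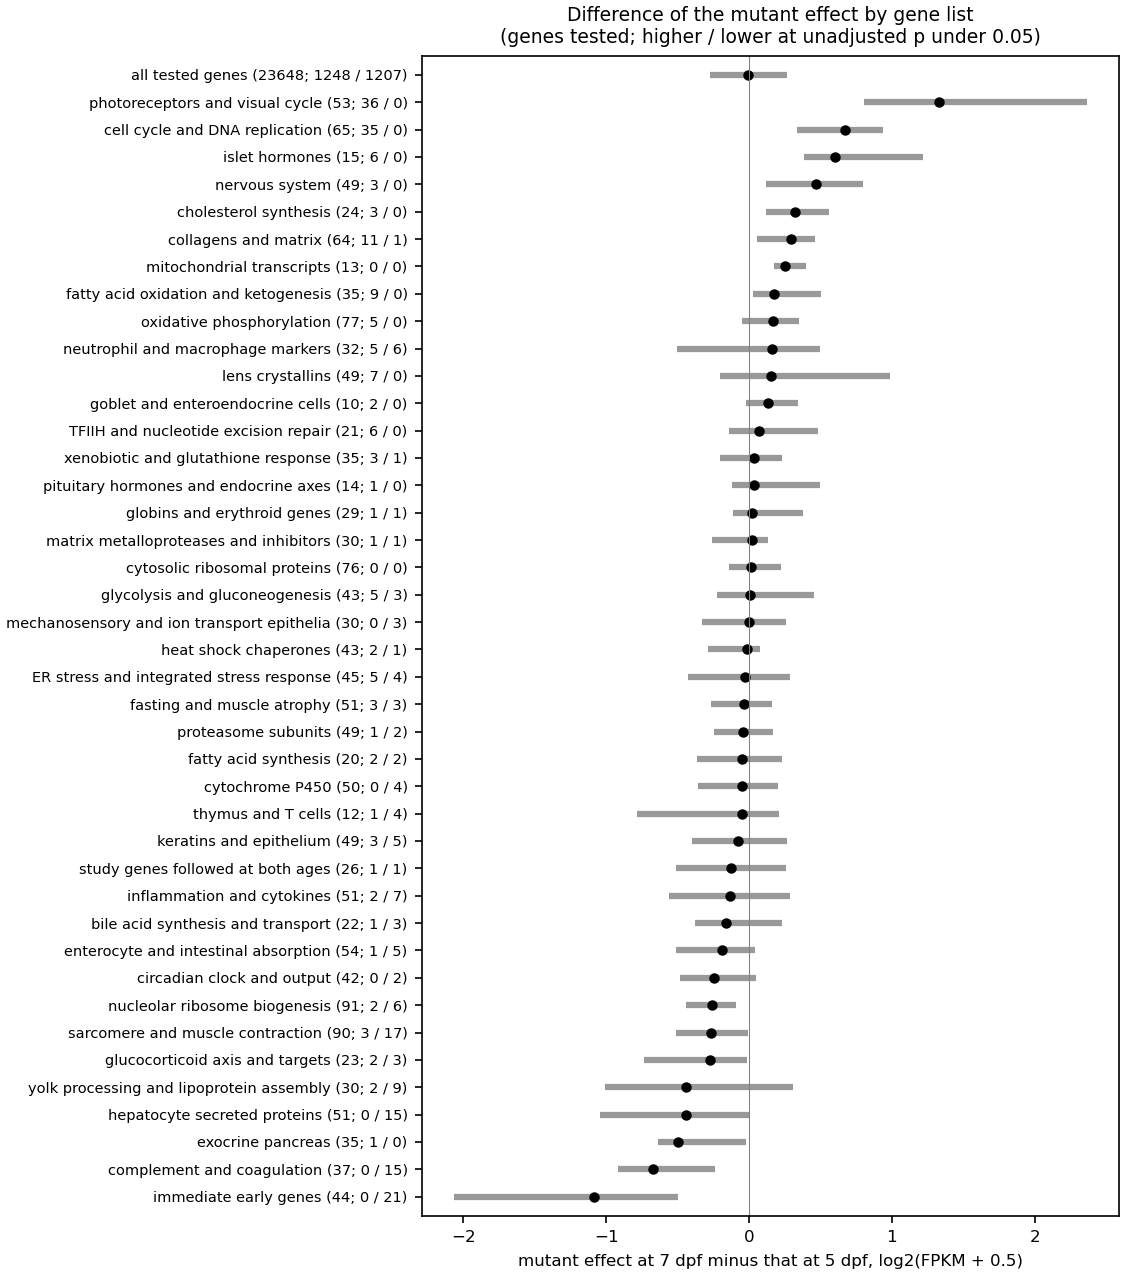
Mutant effect at 7 dpf minus that at 5 dpf on the log2(FPKM + 0.5) scale (horizontal axis) for all tested genes and 41 gene lists, as the median over tested members (points) with the quartiles (bars), beside the number tested and the numbers higher and lower at an unadjusted p under 0.05. The medians run from −1.09 for immediate early genes to 1.33 for photoreceptor genes, against −0.01 for all tested genes.

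In the fit of all 12 libraries cholesterol synthesis and the glucocorticoid axis had medians outside the quartiles of all tested genes, the glucocorticoid axis only just. Those quartiles were −0.27 and 0.27. Without single libraries the medians ranged from 0.24 to 0.44 and from −0.45 to −0.19, so both could fall inside the quartiles. Of 24 cholesterol genes 19 were above 0, with a median of 0.32. On the higher side were 3 (12.5%, against 5.28% of all tested genes) and on the lower 0. The 3 became 1 without 5 dpf mutant library 3 or 5 dpf sibling library 2 and 5 without 5 dpf mutant library 2 or 5 dpf sibling library 3. Of 23 glucocorticoid genes 17 were below 0, with a median of −0.28. On the higher side were 2 (8.7%) and on the lower 3 (13%, against 5.1% of all tested genes). The 3 became 5 without 5 dpf mutant library 1 or 7 dpf mutant library 1, 7 without 5 dpf sibling library 3 and 8 without 7 dpf sibling library 3. Nucleolar ribosome biogenesis (91 tested) had a median of −0.26, with 73 genes below 0, 2 on the higher side (2.2%) and 6 on the lower (6.59%, near the 5.1% of all tested genes). With single libraries left out the 6 ranged from 1, without 5 dpf mutant library 1, to 16, without 7 dpf mutant library 3. Circadian clock genes (42 tested) had a median of −0.24, with 0 on the higher side and 2 on the lower (4.76%), and the 2 ranged from 0 to 6, the highest without 5 dpf sibling library 3.

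Oxidative phosphorylation (77 tested) had a median of 0.17, with 5 genes on the higher side (6.49%, near the 5.28% of all tested genes) and 0 on the lower, and the 5 ranged from 3 to 12, the highest without 7 dpf mutant library 1. Cytosolic ribosomal proteins (76 tested) had a median of 0.01 and 0 genes on either side, but 13 were on the higher side without 7 dpf mutant library 1 and 4 on the lower without 7 dpf mutant library 3. Heat shock chaperones (43 tested) had a median of −0.01, with 2 on the higher side (4.65%) and 1 on the lower (2.33%). These shares were below the 5.28% and 5.1% of all tested genes.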

How the data were processed

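Total RNA from pools of whole larvae was sequenced as 12 libraries. The authors mapped reads to the zebrafish genome GRCz11, with HISAT2 2.0.5 per the submitters' processing notes, and deposited FPKM values per gene for each library. Not given in the sources used here are the counter, its strand setting, the annotation release and the handling of reads that match several copies. FPKM times gene length rose in steps of 1 read: 100% of the values below 10000 reads came out whole within 0.01, which recovered 13403615 to 15084280 reads per library, and the library scaling in the deposited values matched the median of ratios.

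Genes that reached 0.5 FPKM in 3 or more of the 12 libraries were kept (23648 of 37541), and log2(FPKM + 0.5) was fitted with limma 3.58.1 (R 4.3.3) as a 4-group model with a variance trend and 8 residual degrees of freedom. For low genes the pseudocount makes changes look smaller than they are. The contrast was the mutant minus sibling difference at 7 dpf minus that at 5 dpf, two-sided, with Benjamini-Hochberg adjustment over all tested genes and a threshold of 0.05. The study's methods name no test for these data. Named genes were those called or, with 0 called, the 10 of smallest p in each direction with a symbol and a mean of at least 2 FPKM, with *ercc2*, the genes the study followed and any gene called at both ages in opposite directions. Up to 5 members of smallest p per list serve as examples, with a mean of at least 2 FPKM, and were chosen after their values were seen. Members and the 42 gene lists were chosen with earlier results of these data known. Of 1851 listed symbols 1392 matched by symbol, 196 by family name, 164 by synonym and 99 not at all.

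Libraries of the same replicate number deviated together at 5 dpf (correlations 0.272, 0.129 and 0.217 across genes) and were taken to pair there, which rests on the data alone. The main fit had no term for the replicate number, so its p-values and counts do not use this pairing. At 7 dpf the correlations were 0.054, 0.0868 and −0.0232, and the numbers were not taken to pair. Alternatives were other pseudocounts, filters and scalings, a replicate block, library weights, a fit without the variance trend, voom on the recovered reads, leaving out each library, and leaving out the 2 of lowest weight. The block at 5 dpf only, scaling to total reads and a fit of annotated genes only were added after seeing the data. The fit was tested on simulated reads with planted differences of known size and a fixed spread that was not estimated from these data. Tables and plots used Python 3.11.15, pandas 2.3.3, numpy 2.4.6 and matplotlib 3.10.9. Some genes and 1 of the lists are not reported here.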

Additional observations from a re-analysis of the deposited data

Results flagged for a closer look

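Among 116 reported genes 14 had mutants and siblings that did not overlap at either age and stood in opposite order at the 2 ages. The limma test of the difference itself did not pass for any of them at an adjusted p under 0.05, and they were reported for small p, so their number is not set against the background of 0.376% (below, then above) and 0.423% (above, then below) of all tested genes. Mutants were below the siblings at 5 dpf and above them at 7 dpf for RPA2 (difference 1.02), *col9a3* (1.09), AURKB (1.2), CCNB1 (1.39), GNB5 (2.23), GNGT2 (2.5), *grk1b* (2.6), *jac9* (3.07) and OPN1SW (3.96). Mutants were above and then below the siblings for MYBPC1 (−0.64), *smyhc1* (−0.99), *synpo2b* (−1.04), *tnnt2d* (−1.22) and *rgs5b* (−1.4). Some gaps between the highest mutant and lowest sibling were very narrow. At 5 dpf they were 15.07 and 15.15 FPKM for RPA2 and 49.94 and 50.27 for *col9a3*. At 7 dpf they were 128.16 and 128.45 for *tnnt2d* and 8.5108 and 8.5116 for MYBPC1.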

How the results depend on the processing

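The number of genes called on the difference was at or near 0 under most alternatives. It was 1 higher and 1 lower with a pseudocount of 1 or without the variance trend, 1 and 2 without a filter or with annotated genes only, 4 and 6 with library weights, 1 higher with a replicate block over both ages and 2 higher with a block at 5 dpf only. It was 0 in both directions with a pseudocount of 0.1, a filter at 1 FPKM, TPM, total reads, voom, without the 2 lowest-weight libraries, or with separate replicate blocks at the 2 ages. Leaving out single libraries gave 0 to 1 higher and 0 to 6 lower, the 6 without sibling 5 dpf replicate 3. With total reads 745 genes were on the lower side at the unadjusted threshold. The photoreceptor median was 2.03 with a pseudocount of 0.1, 1.81 with a filter at 1 FPKM, 2.29 with voom and 1.16 to 1.71 without single libraries, and the cell cycle median was 0.83 with a pseudocount of 0.1 or voom, 0.79 without the 2 libraries and 0.60 to 0.76 without single libraries. Genes with differences near 0 changed sign: FABP2 (−0.0041 with a pseudocount of 0.1, −0.21 with voom), *il1b* (−0.083 with a pseudocount of 0.1, −0.19 with weights, −0.43 with voom, −0.77 without the 2 libraries), *ins* (−0.25 with weights), *gcga* (−0.0201 with voom), SLC15A1 (0.036), RAG1 (0.055) and *ela3l* (0.13) without the 2 libraries, and *hbae1.1* (0.018 with total reads). Without single libraries the ranges that crossed 0 were −0.28 to 0.0019 for ERCC2, −0.76 to 0.024 for FABP6, −1.39 to 0.079 for MMP9, −0.95 to 1.37 for *il1b*, −0.97 to 0.18 for *ela3l*, −0.42 to 0.14 for *hbae3*, −0.17 to 0.18 for *cdx1b*, −0.49 to 1.31 for *ins*, −0.26 to 0.22 for VIL1 and −0.37 to 0.56 for *hbae1.1*. The cause was not tested. Median-of-ratios scaling is that of the deposited values and so could not change a result. With 3 libraries per group the difference of 2 effects carries the error of all 4 groups, and the size of difference that could have been called at the spread of these data was not estimated.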
